A study of Mus musculus with 10 samples.

Results

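Activin and TGF-beta signalling was followed across 5 groups of mice through 10 genes, which were found by their symbols among the 15900 genes of a table of hippocampal transcription. They were the ligand genes *Inhba*, *Tgfb1*, *Tgfb2* and *Tgfb3*, the receptor genes *Tgfbr1*, *Tgfbr2* and *Acvr1*, the gene of the secreted antagonist follistatin, *Fst*, and the SMAD genes *Smad3* and *Smad7*. All 10 had 1 row each and passed the filter on low values. They were chosen as a family when results from these mice were already known, and *Inhba* was then among the genes with the largest increase at 6 h. The level of *Inhba* at 6 h is therefore given as a description without a test, and the number of the 10 genes that changed says nothing about the family as such. Differences of other groups from that level of *Inhba* are to be read as descriptions too.

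Activins and TGF-betas are secreted dimers. They bind a type II receptor kinase, which activates a type I receptor kinase, and the type I receptor phosphorylates SMAD2 and SMAD3, which join SMAD4 and act on genes in the nucleus. Follistatin binds activin outside the cell, and SMAD7 blocks type I receptors inside it. TGF-betas are released in a latent complex and must be freed before they signal. In the brain, activin A is known as a factor that neurons make when they are strongly active, and TGF-beta as a factor that glial cells make after injury.

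Cap analysis of gene expression (CAGE) sequences tags from the capped ends of RNA, and a tag therefore marks where transcription began. It was applied to whole hippocampi of 10 male ICR mice aged 9 to 10 weeks, with 2 mice in each group. Pre-SE mice are labelled untreated, and the methods of the study gave control mice saline in place of pilocarpine (PILO). The other groups received methyl scopolamine and then PILO, a muscarinic agonist, went through status epilepticus (SE), defined by 5 generalized convulsive seizures, and were given diazepam to end it. They were sampled 6 h or 2 days after SE, either without further treatment (SE 6 h and SE 2 days) or with levetiracetam (LEV), an antiepileptic drug given by mouth after diazepam. LEV had been given 1 time in the 6 h group and 5 times in the group of 2 days. No group received diazepam or LEV without SE, so that the parts of PILO, seizures and diazepam in a difference from pre-SE mice cannot be told apart. In whole tissue, fewer cells of a type and less RNA per cell cannot be told apart either.

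The table gives CPM, tag counts scaled to 1 common library total, and from its smallest steps the libraries held an estimated 10540698 to 51710968 tags on the listed genes, with 3 tags worth 0.058 to 0.285 CPM. The lowest of all values of the 10 genes was 0.62 CPM, or 15 tags. The logFC is the difference of group means of log2(CPM + 0.1), which understates the change of genes with low CPM. It was tested with limma over all 15851 genes that passed the filter, and a gene was called where its p adjusted over them did not exceed 0.05. The labels do not say more about the mice than their number, and the p-values measure the spread between these mice. The summed level of 4 choroid plexus markers was 869 to 4020 CPM in pre-SE replicate 2, SE 6 h replicate 2, SE + LEV 6 h replicate 1 and SE + LEV 2 days replicate 1, and 8.72 to 67.9 CPM in the other libraries. All 6 neuron markers were present in every library, with *Snap25* at 1297 CPM or more, as a sample of brain tissue should show.

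The sequences upstream of the starts of 4 of the genes are shown because CAGE counts the transcripts that begin there. They are the 250 bases before the RefSeq start on the GRCm38.p6 build, which is not the build of the table, read from 5′ to 3′ on the strand of the gene. *Inhba* was the ligand with the largest increase, *Tgfb1* and *Tgfbr2* were a ligand and a receptor with increases at 2 days, and *Tgfb2* was a ligand that was not called. Capitals mark matches on either strand to 4 short motifs. The AP-1 site was searched as TGANTCA. The core of the cyclic AMP response element (CRE) was searched as TGACG. The SMAD-binding element was searched as CAGACA. The TATA box was searched as TATAAA.
*Inhba*, chr13:16011601-16011850, plus strand: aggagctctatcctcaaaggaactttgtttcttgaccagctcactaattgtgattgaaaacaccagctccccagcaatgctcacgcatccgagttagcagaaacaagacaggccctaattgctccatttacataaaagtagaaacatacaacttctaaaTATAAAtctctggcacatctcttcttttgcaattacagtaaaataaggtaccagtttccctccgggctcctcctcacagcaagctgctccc
*Tgfb1*, chr7:25686752-25687001, plus strand: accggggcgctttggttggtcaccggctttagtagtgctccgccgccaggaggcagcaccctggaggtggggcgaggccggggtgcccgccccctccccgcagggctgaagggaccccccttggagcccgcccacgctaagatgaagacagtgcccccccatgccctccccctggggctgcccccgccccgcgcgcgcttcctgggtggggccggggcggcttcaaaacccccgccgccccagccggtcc
*Tgfbr2*, chr9:116175364-116175613, minus strand: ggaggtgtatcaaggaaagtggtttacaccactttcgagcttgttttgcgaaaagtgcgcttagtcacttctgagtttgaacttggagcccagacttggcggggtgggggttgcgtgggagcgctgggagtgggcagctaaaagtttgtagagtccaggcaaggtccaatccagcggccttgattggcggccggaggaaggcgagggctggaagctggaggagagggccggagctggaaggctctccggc
*Tgfb2*, chr1:186705990-186706239, minus strand: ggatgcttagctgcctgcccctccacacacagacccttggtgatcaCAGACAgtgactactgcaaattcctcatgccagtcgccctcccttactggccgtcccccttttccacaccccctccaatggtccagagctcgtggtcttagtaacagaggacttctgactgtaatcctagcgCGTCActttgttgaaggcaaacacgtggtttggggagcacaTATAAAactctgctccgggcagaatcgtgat
The *Inhba* window held a TATA box and had a GC content of 43.2% with 3 CpG dinucleotides. The *Tgfb1* and *Tgfbr2* windows held none of the 4 motifs, with GC contents of 75.2% and 58.4% and 21 and 12 CpG dinucleotides. The *Tgfb2* window held a CRE core, a SMAD-binding element and a TATA box, with a GC content of 53.6% and 8 CpG dinucleotides. Among 32817 RefSeq promoter windows of the same length, the AP-1 site was found in 6.75%, the CRE core in 17.7%, the SMAD-binding element in 17.1% and the TATA box in 12.4%, and the median GC content was 52.4% with 6 CpG dinucleotides. The AP-1 site and the CRE core cannot share bases. A match is a description of the letters and not evidence of a binding site. Of the 10 genes, 7 were matched in the promoter table, and *Tgfb3*, *Fst* and *Smad7* were not.

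*Inhba* encodes the inhibin beta A chain, the subunit of activin A. It lies on chromosome 13 of the mm9 (NCBIM37) assembly from 16103684 to 16119044 on the plus strand, with the identifier ENSMUSG00000041324. Its level was 7.69 and 5.3 CPM in the pre-SE mice (replicates 1 and 2), 972 and 461 CPM in the SE 6 h mice, 208 and 132 CPM in the SE + LEV 6 h mice, 47.7 and 499.9 CPM in the SE 2 days mice and 62.3 and 34.5 CPM in the SE + LEV 2 days mice. Every mouse after SE was above both pre-SE mice. The mean of the SE 6 h mice, 717 CPM, was 110 times that of pre-SE mice, 6.5 CPM, with a logFC of 6.69.

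The SE 2 days mice differed from each other by 10.5-fold in *Inhba*, against 1.45- to 2.11-fold in the other 4 groups. SE 2 days replicate 2 was above SE 6 h replicate 2, and SE 2 days replicate 1 lay between the SE + LEV 2 days mice. Their mean, 274 CPM, was 42.2 times that of pre-SE mice, and *Inhba* was called higher (logFC 4.58, standard error 0.85, limma adjusted p = 0.012). The logFC was 2.88 without SE 2 days replicate 2 and 6.27 without replicate 1. The call was lost without pre-SE replicate 1 (adjusted p = 0.051) or pre-SE replicate 2 (adjusted p = 0.067). Against SE 6 h mice, the logFC at 2 days was −2.12, and it was −3.81 without SE 2 days replicate 2. Both values are descriptions, because the high level of *Inhba* at 6 h was known when the genes were chosen.

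*Tgfb1*, the main TGF-beta gene of immune and glial cells, lies on chromosome 7 from 26472021 to 26490096 on the plus strand. Its level was 6.45 and 4.68 CPM in the pre-SE mice, 12.4 and 14.2 CPM in the SE 6 h mice, 10.7 and 16.98 CPM in the SE + LEV 6 h mice, 28.3 and 27.9 CPM in the SE 2 days mice and 27.2 and 23.5 CPM in the SE + LEV 2 days mice. The level was thus lowest before SE, intermediate in all 4 mice of 6 h and highest in all 4 mice of 2 days, with no overlap between these steps. It rose 5.05-fold at 2 days (logFC 2.33, standard error 0.30, limma adjusted p = 0.0023) and 4.55-fold at 2 days with LEV (logFC 2.18, adjusted p = 0.0052) against pre-SE mice. At 6 h, both SE mice were above both pre-SE mice, but the logFC of 1.25 was not called (adjusted p = 0.060). It was called when the libraries were rescaled by the median of their ratios (logFC 1.38, adjusted p = 0.031), a rescaling that moved the median logFC of all genes in that comparison from −0.13 to −0.005.

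*Tgfb2* and *Tgfb3*, the genes of the other TGF-beta ligands, were not called in any of the comparisons. *Tgfb2* (chromosome 1, 188447065 to 188529871, minus strand) was at 65.7 and 60.3 CPM in pre-SE mice, 66.4 and 104 CPM in SE 6 h mice, 121 and 56.4 CPM in SE + LEV 6 h mice, 54.7 and 63.8 CPM in SE 2 days mice and 53.0 and 51.6 CPM in SE + LEV 2 days mice. The highest levels were those of SE + LEV 6 h replicate 1 and SE 6 h replicate 2, which were also among the 4 libraries with high choroid plexus markers. The rest of the 4, pre-SE replicate 2 and SE + LEV 2 days replicate 1, were at 60.3 and 53.0 CPM. The other mice of their groups were at 65.7 and 51.6 CPM. The part of that tissue in the level of *Tgfb2* was not tested. *Tgfb3* (chromosome 12, 87397694 to 87419991, minus strand) ranged from 10.7 to 19.5 CPM in 9 libraries and was at 32.2 CPM in SE 6 h replicate 2. At 2 days, the logFC against pre-SE mice was −0.09 for *Tgfb2* (95% interval −0.86 to 0.68) and 0.26 for *Tgfb3* (−0.67 to 1.2). Reads of *Tgfb2* cannot be told apart from those of *SNORA70*, which overlaps it on the other strand, unless strand was used in counting, and the sources used here do not state this.

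**Figure D1:**
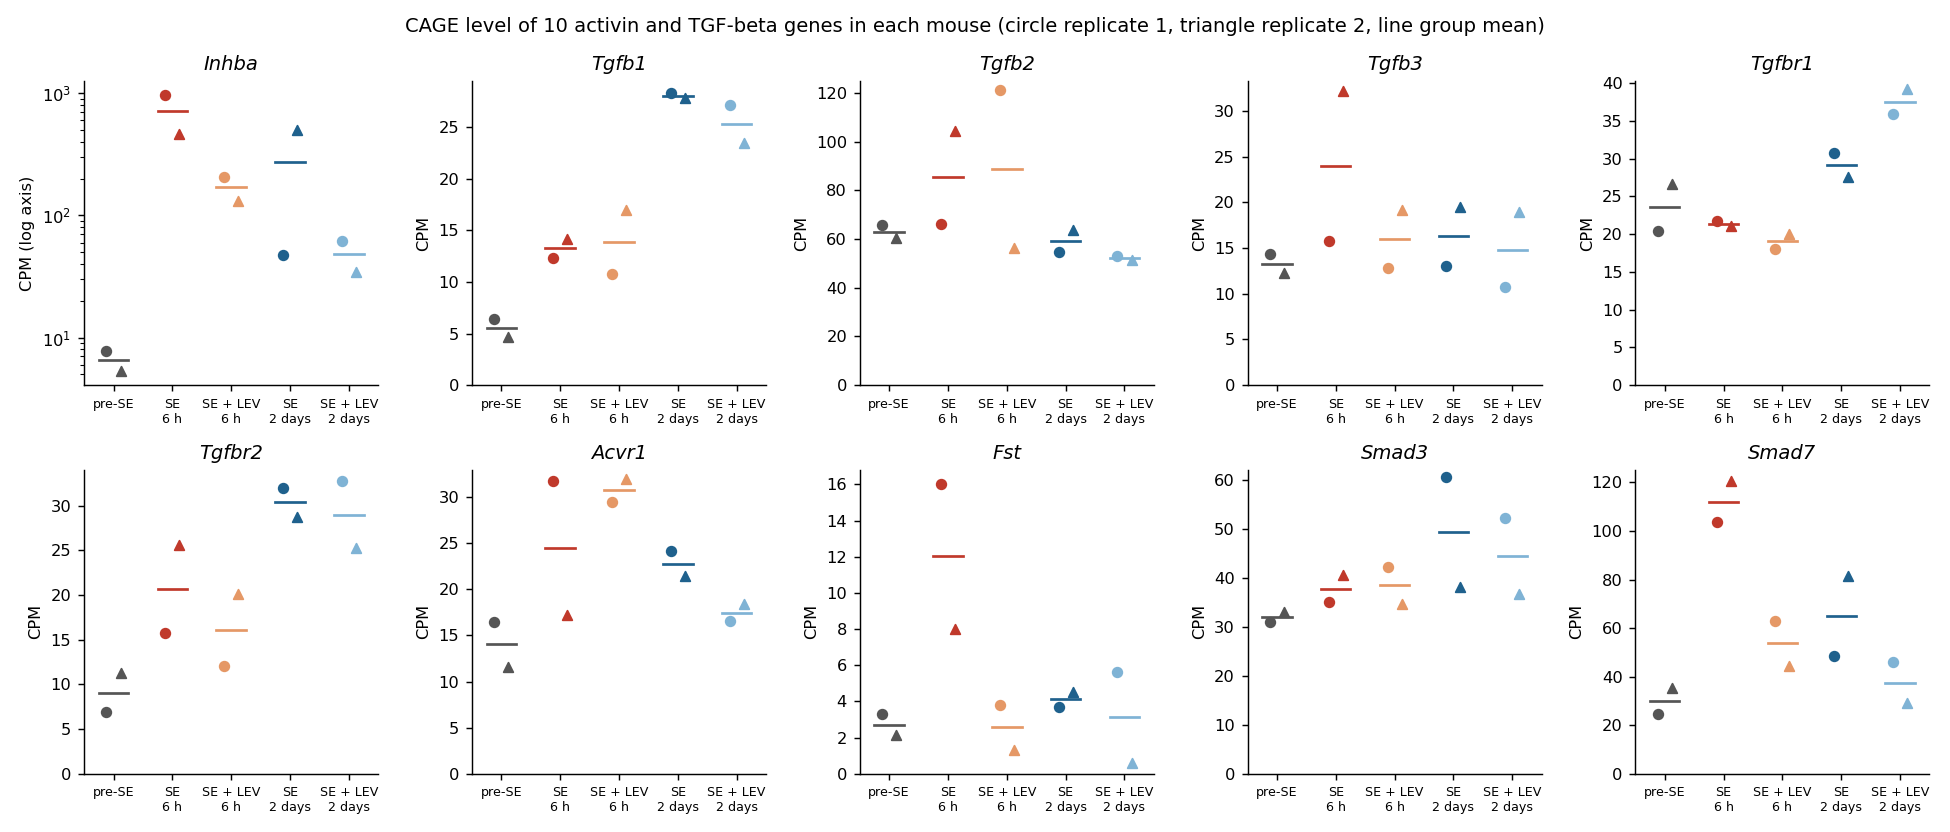
CPM of each of the 10 genes by group, with a circle for replicate 1, a triangle for replicate 2 and a line at the group mean; the axis of *Inhba* is logarithmic and the others start at 0. *Inhba* is above its pre-SE level in all 8 mice after SE, *Tgfb1* and *Tgfbr2* are highest in the 4 mice of 2 days apart from overlap of *Tgfbr2* with SE 6 h replicate 2, and *Smad7* is highest in the SE 6 h mice.

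Of the receptor genes, *Tgfbr2* rose, and *Tgfbr1* and *Acvr1* were not called. *Tgfbr2* encodes the type II receptor of the TGF-betas and lies on chromosome 9 from 115993415 to 116084383 on the minus strand. Its level was 6.86 and 11.3 CPM in the pre-SE mice, 15.8 and 25.6 CPM in the SE 6 h mice, 12.1 and 20.1 CPM in the SE + LEV 6 h mice, 32.0 and 28.8 CPM in the SE 2 days mice and 32.7 and 25.2 CPM in the SE + LEV 2 days mice. All 8 mice after SE were above both pre-SE mice. The rise was 3.35-fold in SE 2 days mice (logFC 1.77, standard error 0.37, limma adjusted p = 0.019) and 3.20-fold in SE + LEV 2 days mice (logFC 1.70, adjusted p = 0.036). The call in SE 2 days mice was lost without pre-SE replicate 1 (adjusted p = 0.17), SE 2 days replicate 1 (0.081) or SE 2 days replicate 2 (0.12). At 6 h the logFC of 1.18 was not called (adjusted p = 0.13).

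*Tgfbr1* encodes the type I receptor that works with the *Tgfbr2* product and lies on chromosome 4 from 47366094 to 47427803 on the plus strand. It was at 20.4 and 26.7 CPM in pre-SE mice, 21.7 and 21.0 CPM in SE 6 h mice, 18.1 and 20.02 CPM in SE + LEV 6 h mice, 30.8 and 27.5 CPM in SE 2 days mice and 35.9 and 39.2 CPM in SE + LEV 2 days mice. The order of the means put SE + LEV 2 days first and SE + LEV 6 h last, and the 2 groups of 2 days overlapped neither with each other nor with the rest. The logFC between the SE + LEV groups of 2 days and 6 h was 0.98 (standard error 0.24, limma adjusted p = 0.077), and that of SE 2 days mice against pre-SE mice was 0.32 (adjusted p = 0.53). *Acvr1* encodes a type I receptor that binds activins and bone morphogenetic proteins (BMPs). It lies on chromosome 2 from 58241055 to 58419568 on the minus strand and overlaps *Gm17409* on the other strand. It ranged from 11.6 to 16.5 CPM before SE, 17.3 to 31.7 CPM in SE 6 h mice, 29.5 to 32.0 CPM in SE + LEV 6 h mice, 21.5 to 24.2 CPM in SE 2 days mice and 16.6 to 18.4 CPM in SE + LEV 2 days mice. Its logFC against pre-SE mice was 0.76 at 6 h and 0.72 at 2 days (adjusted p = 0.25 in each), and 1.15 in SE + LEV 6 h mice (adjusted p = 0.23).

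*Fst* encodes follistatin and lies on chromosome 13 from 115242470 to 115249159 on the minus strand. It was at 3.28 and 2.15 CPM in the pre-SE mice, 16.0 and 8.02 CPM in the SE 6 h mice, 3.82 and 1.33 CPM in the SE + LEV 6 h mice, 3.69 and 4.54 CPM in the SE 2 days mice and 5.62 and 0.62 CPM in the SE + LEV 2 days mice. The SE 6 h mice had the highest levels and overlapped with no other group, while the other 4 groups overlapped with each other except that SE 2 days mice were above pre-SE mice. The logFC of 2.05 at 6 h had a 95% interval of 0.18 to 3.92 and was not called (adjusted p = 0.24). The SE + LEV 2 days mice differed by 9.06-fold.

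*Smad7* encodes the inhibitory SMAD, whose own gene is a known target of TGF-beta and activin signalling, and lies on chromosome 18 from 75527183 to 75555589 on the plus strand. Its level was 24.7 and 35.5 CPM in the pre-SE mice, 104 and 120.5 CPM in the SE 6 h mice, 63.1 and 44.6 CPM in the SE + LEV 6 h mice, 48.6 and 81.6 CPM in the SE 2 days mice and 46.1 and 29.0 CPM in the SE + LEV 2 days mice. The SE 6 h mice were above all others. The rise at 6 h was 3.73-fold (logFC 1.91, standard error 0.34, limma adjusted p = 0.016), and it was not called without pre-SE replicate 1 (adjusted p = 0.12), SE 6 h replicate 1 (0.066) or SE 6 h replicate 2 (0.14). At 2 days both SE mice were above both pre-SE mice, with a logFC of 1.09 that was not called (adjusted p = 0.10). *Smad3*, the gene of a SMAD that type I receptors of activin and TGF-beta phosphorylate (chromosome 9, 63494574 to 63605801, minus strand), ranged from 31.1 to 42.3 CPM in the 6 mice before SE and at 6 h and from 36.8 to 60.7 CPM in the 4 mice of 2 days. Its logFC against pre-SE mice was 0.23 at 6 h (95% interval −0.40 to 0.86) and 0.59 at 2 days (−0.04 to 1.22), and neither was called.

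**Figure D2:**
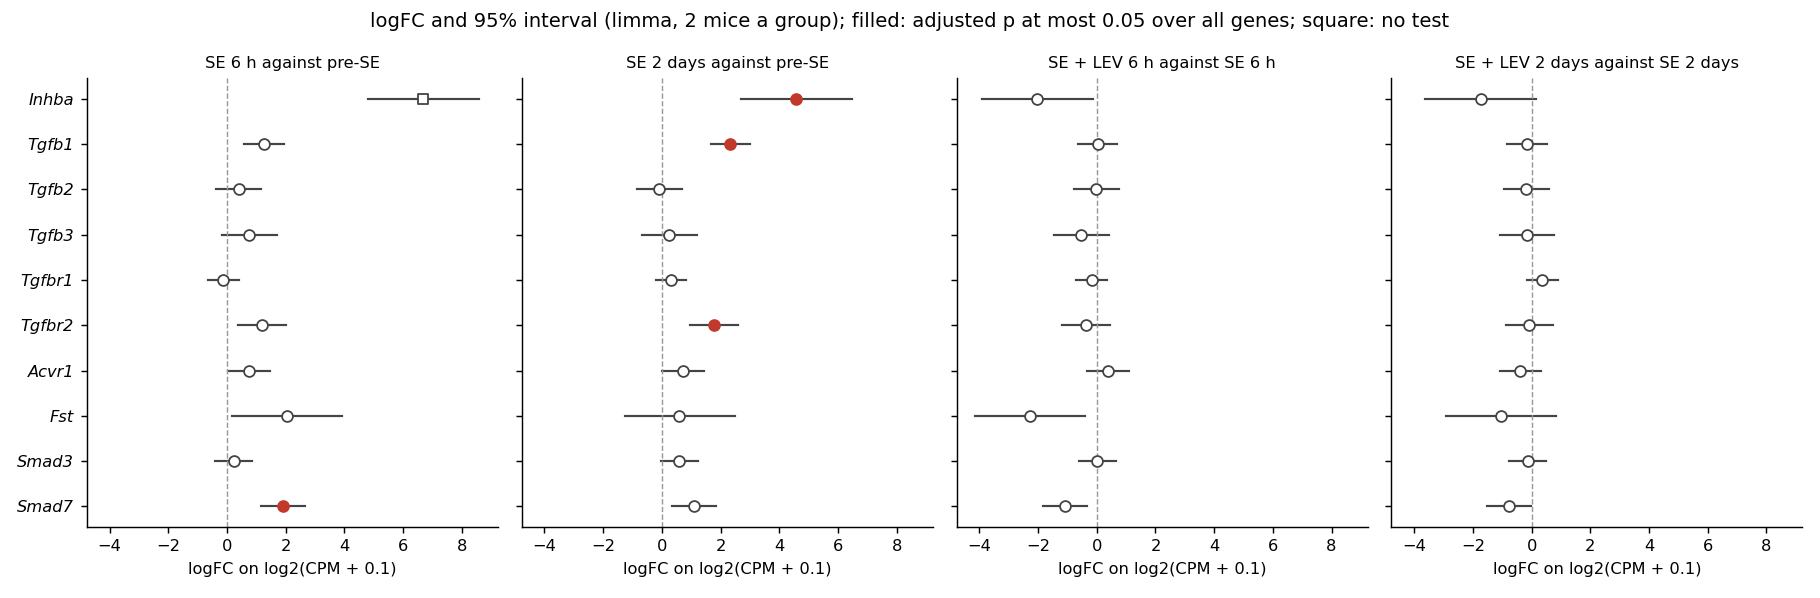
logFC on the log2(CPM + 0.1) scale with its 95% interval for each of the 10 genes in 4 comparisons, filled where the limma adjusted p over all genes is at most 0.05. The square is *Inhba* in SE 6 h against pre-SE mice, which was not tested. The filled points are those of *Smad7* in SE 6 h against pre-SE mice and of *Inhba*, *Tgfb1* and *Tgfbr2* in SE 2 days against pre-SE mice, and no point is filled in the comparisons of SE + LEV with SE mice.

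Apart from *Inhba* at 6 h, for which no test is given, limma called 1 of the other 9 genes higher in SE 6 h mice (*Smad7*), where 2.76% of all genes tested were called higher, and 3 of the 10 in SE 2 days mice (*Inhba*, *Tgfb1* and *Tgfbr2*), where 5.07% were. None was called lower, against 0.202% and 0.593% of all genes. With *Inhba* included as a description, the median logFC of the 10 genes was 0.97 at 6 h and 0.66 at 2 days, and that of all genes was −0.13 and −0.03. In 9 of the 10 genes at 6 h, with *Inhba* again counted as a description, the lower SE mouse exceeded the higher pre-SE mouse, against 18.6% of all genes. At 2 days this was so in 8 of the 10, against 26.3%. The reverse was seen in 0 of the 10 at either time, against 31.3% and 25.6% of all genes. Without the 4 libraries with high choroid plexus markers, an alternative added after the data were seen that leaves 1 mouse in 4 of the groups and takes the spread from the SE 2 days mice, *Smad7* was not called at 6 h, and 2 of the genes were called at 2 days (*Tgfb1* and *Tgfbr2*). The logFC was then 2.07 for *Smad7* (adjusted p = 0.20), and 4.31 for *Inhba* at 2 days (adjusted p = 0.12). Between SE 2 days and SE 6 h mice, 0 of the 10 were called, against 3.14% of all genes called higher and 1.11% lower. With no adjustment of p, and with *Inhba* left aside, *Tgfb1* passed 0.05 as higher and *Smad7* as lower at 2 days, as did 2026 and 1155 of all genes.

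The question of whether LEV changed these genes was addressed by comparing SE + LEV with SE mice at each time. The SE mice enter both these comparisons and those with pre-SE mice. At 6 h, *Inhba* (counted as a description), *Fst*, *Smad7* and *Tgfbr1* were lower in both SE + LEV mice than in both SE mice, against 13.4% of all genes. None of the 10 was higher in both, against 16.1%. The means with LEV were 4.22 times lower for *Inhba* (170 against 717 CPM), 4.67 times lower for *Fst* (3.82 and 1.33 against 16.0 and 8.02 CPM) and 2.08 times lower for *Smad7* (53.9 against 112 CPM). limma called 0 of the 10 genes, and 0.0126% of all genes were called lower and 0.0% higher. At an unadjusted p under 0.05, and with *Inhba* left aside, *Fst* and *Smad7* were lower and 0 of the genes higher, beside 542 lower and 184 higher of all 15851 genes. The logFC of *Inhba* was −2.02, a description because its high level in SE 6 h mice was known when the genes were chosen. The logFC was −2.27 for *Fst* (95% interval −4.14 to −0.40, limma adjusted p = 0.95) and −1.07 for *Smad7* (−1.83 to −0.32, adjusted p = 0.75). Over the alternatives, the adjusted p ran from 0.32 to 1.0 for *Fst* and from 0.49 to 1.0 for *Smad7*. For *Tgfb1*, the logFC with LEV at 6 h was 0.03 with a 95% interval of −0.65 to 0.70.

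At 2 days, *Smad7*, *Tgfb1*, *Tgfb2* and *Acvr1* were lower in both SE + LEV mice than in both SE mice, against 12.2% of all genes, and *Tgfbr1* was higher in both, against 15.2%. limma called 0 of the 10 genes, as it called 0.0% of all genes in either direction, and at an unadjusted p under 0.05 1 of the 10 was lower (*Smad7*), beside 220 lower and 208 higher of all genes. The logFC of *Smad7* was −0.78 (95% interval −1.53 to −0.03, adjusted p = 1.0). For *Inhba* the groups overlapped, the logFC was −1.73 (−3.63 to 0.16, adjusted p = 1.0), and it was −0.04 without SE 2 days replicate 2 and −3.43 without replicate 1. For *Tgfb1* and *Tgfbr2*, the genes that rose at 2 days, the logFC with LEV was −0.15 (−0.83 to 0.52) and −0.08 (−0.89 to 0.73).

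Against pre-SE mice, 0 of the 10 genes were called in SE + LEV 6 h mice (0.315% of all genes were called higher and 0.00631% lower), with 5 higher and 0 lower where p was not adjusted (876 and 611 of all genes). *Inhba* had the largest difference there, 26.2-fold with a logFC of 4.68 (adjusted p = 0.061), and was called in a fit of only the groups compared and without any 1 of the 4 mice of 2 days. In SE + LEV 2 days mice, 2 of the 10 were called higher (*Tgfb1* and *Tgfbr2*), against 2.83% of all genes called higher and 0.0189% lower, and *Inhba* was 7.45 times its pre-SE level without a call (adjusted p = 0.15). *Inhba* was called there without either SE 2 days mouse (adjusted p = 0.014 in each case). *Tgfbr2* was called in 11 of 19 alternatives, and lost its call without either pre-SE mouse, either SE 2 days mouse or SE + LEV 2 days replicate 1 (adjusted p = 0.061 to 0.30). *Tgfb1* was called whichever mouse was left out. Between the SE + LEV groups, 0 of the 10 were called in 2 days against 6 h mice, with 2.06% of all genes called higher and 0.0757% lower, and with 3 higher and 1 lower where p was not adjusted (1461 and 428 of all genes). The difference between the LEV effects of 2 days and 6 h was itself tested, and limma called it for 0 of the 10 genes, with 0 at an unadjusted p under 0.05 and 0.0% of all genes called.

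Other genes of the pathway were read from 9 lists drawn up by role, and 74 of their 100 symbols were in the table and tested. At 6 h, 4 of the 74 (5.41%) rose and 0 fell, where 2.76% of all genes were called higher and 0.202% lower, and the median logFC against pre-SE mice was 0.33. They were *Thbs1*, whose product thrombospondin 1 frees TGF-beta from its latent complex, *Tgif1*, a corepressor of SMADs, and the known target genes *Cdkn1a* (the cell cycle inhibitor p21) and *Junb*. At 2 days, 6 (8.11%) rose and 0 fell, where 5.07% of all genes were called higher and 0.593% lower, with a median of 0.27. They were *Tgfbi* (a matrix protein induced by TGF-beta), *Cdkn1a*, *Tgif1*, *Junb*, *Id1* and *Acvr1c*, which encodes the type I receptor ALK7.

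The target genes had the highest median logFC of the 9 lists at both times. Of 15 targets, 2 (13.3%) rose at 6 h (median 0.90), where 2.76% of all genes were called higher, and 4 (26.7%) at 2 days (median 1.85), where 5.07% were. For 13 of the 15 at 2 days the SE and pre-SE mice did not overlap and the SE mice were higher, as for 26.3% of all genes. *Cdkn1a* was at 9.14 and 7.33 CPM before SE, 91.5 and 113 CPM at 6 h and 64.7 and 85.0 CPM at 2 days (logFC 3.62 and 3.16, limma adjusted p = 0.0023 and 0.0014). *Tgfbi* was at 1.83 and 1.88 CPM before SE, 8.31 and 7.26 CPM at 6 h and 26.03 and 47.3 CPM at 2 days (logFC 2.01 and 4.17, adjusted p = 0.19 and 0.0087). *Junb*, also an immediate early gene, had a logFC of 2.74 and 2.24 (adjusted p = 0.028 and 0.044), and *Id1*, a target of BMP signalling as well, had a logFC of 1.07 and 1.85 (adjusted p = 0.21 and 0.028). Many of these genes respond to other signals too, and the part of TGF-beta or activin in their levels was not tested.

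*Thbs1* had the same unevenness as *Inhba* at 2 days, with 3.01 and 43.5 CPM in SE 2 days replicates 1 and 2, against 37.2 and 36.9 CPM at 6 h and 0.76 and 1.59 CPM before SE (logFC 4.95 and 3.27, adjusted p = 0.035 and 0.11). *Tgif1* was low, at 0.69 and 0.48 CPM before SE, 2.18 and 3.36 CPM at 6 h and 3.90 and 5.16 CPM at 2 days (logFC 2.05 and 2.76, adjusted p = 0.047 and 0.0076). *Acvr1c* went from 10.2 and 8.24 CPM to 29.7 and 35.7 CPM at 2 days (logFC 1.82, adjusted p = 0.043). The calls of *Cdkn1a* at both times held whichever mouse was left out. Leaving out either pre-SE mouse or either SE 6 h mouse ended the 6 h calls of *Thbs1*, *Tgif1* and *Junb* (adjusted p = 0.057 to 0.29). That of *Thbs1* was also lost without either SE + LEV 6 h mouse (0.059 in each case), and that of *Tgif1* without either SE 2 days mouse (0.067 and 0.068). At 2 days, *Tgif1* lost its call without pre-SE replicate 2 or SE 2 days replicate 2, *Tgfbi* without pre-SE replicate 1 or SE 2 days replicate 2, and *Id1*, *Junb* and *Acvr1c* without any 1 of the 4 mice compared, and *Junb* and *Acvr1c* also without either SE 6 h mouse. Between the times, 2 of the 74 genes (2.7%) were called higher at 2 days than at 6 h and 0 lower, where 3.14% of all genes were called higher and 1.11% lower. They were *Id3* and *Col1a2*, which encodes a collagen chain (logFC 1.68 and 2.51, adjusted p = 0.019 and 0.037). Both calls were lost without SE 6 h replicate 1, SE 2 days replicate 1 or SE 2 days replicate 2, and that of *Col1a2* also without SE 6 h replicate 2 or either SE + LEV 6 h mouse. *Col1a2* is also 1 of 6 markers of fibroblasts and meninges, whose summed level was 88.0 to 113 CPM in SE 6 h mice and 156 to 171 CPM in SE 2 days mice, and the part of those cells in its level was not tested.

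**Figure D3:**
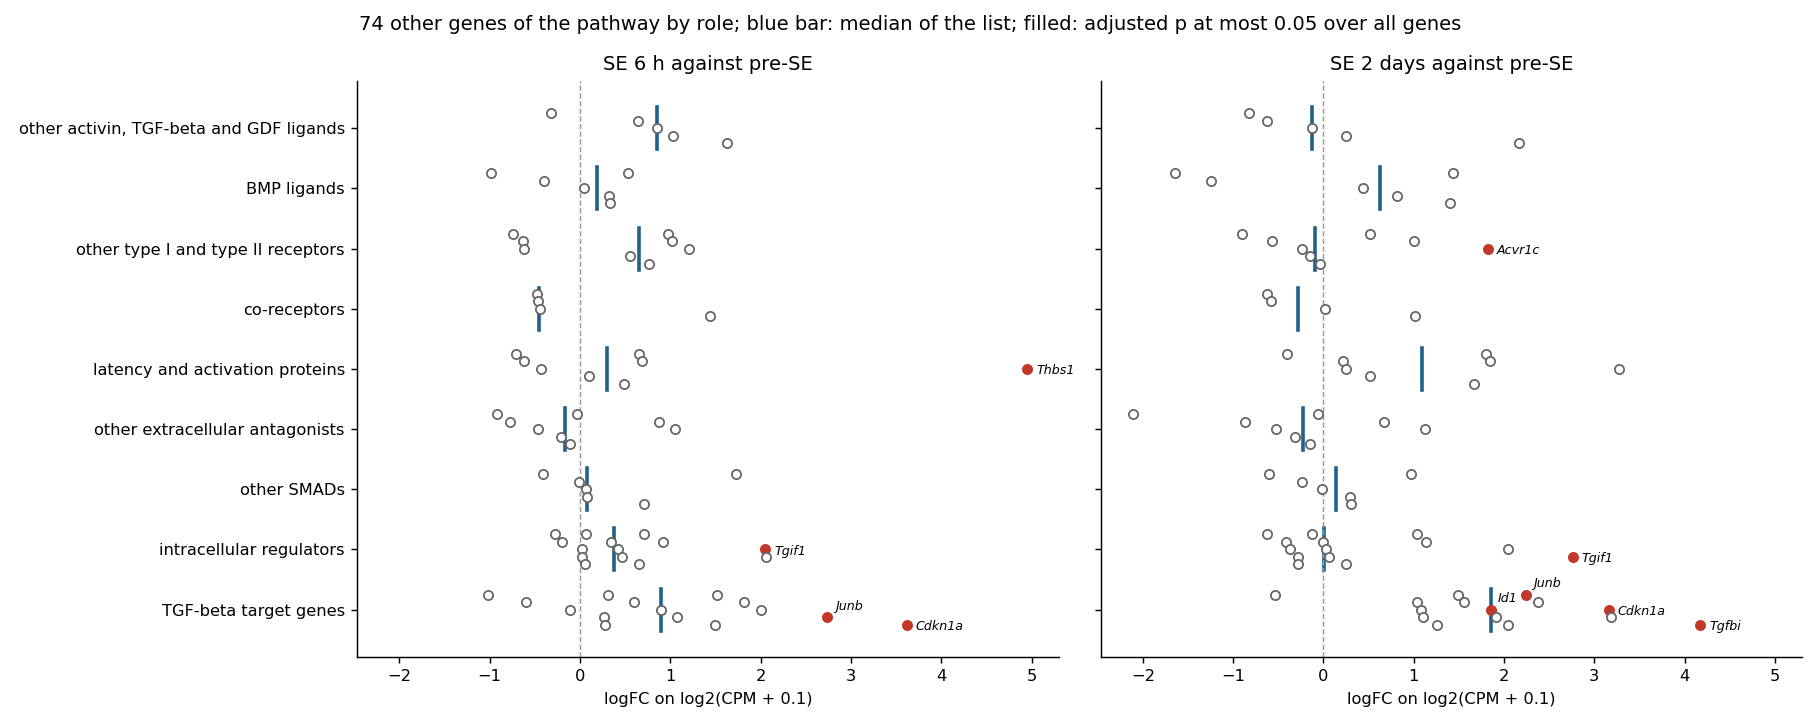
logFC on the log2(CPM + 0.1) scale of the 74 other pathway genes against pre-SE mice at 6 h and 2 days, in rows by role, with a blue bar at the median of each list and filled, named points where the limma adjusted p over all genes is at most 0.05. The filled points number 4 at 6 h and 6 at 2 days, all to the right of 0, and 2 and 4 of them are in the row of target genes.

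The remaining roles held few or no calls. Of 5 other activin, TGF-beta and growth differentiation factor ligands, 0 were called at either time. *Inhbb*, the gene of the inhibin beta B chain, was at 0.14 and 0.29 CPM before SE, 0.48 and 1.44 CPM at 6 h and 0.20 and 0.09 CPM at 6 h with LEV, with a logFC of 1.63 at 6 h that was not called (adjusted p = 0.22). The activin receptor genes *Acvr2a* and *Acvr1b* were lower in both SE 6 h mice than in both pre-SE mice, without a call. The levels were 43.2 and 38.2 against 63.0 and 72.8 CPM for *Acvr2a* (logFC −0.74, limma adjusted p = 0.12). They were 81.0 and 57.0 against 103 and 108 CPM for *Acvr1b* (logFC −0.63, adjusted p = 0.21). Of the list of 8 other receptor genes that holds both, 3 were lower in both SE 6 h mice and 4 higher in both, against 31.3% and 18.6% of all genes. The groups overlapped for *Smad2* and *Smad4*, with a logFC at 6 h of 0.08 (standard error 0.30) and −0.01 (standard error 0.50). Where p was not adjusted, 18 of the 74 genes were higher at 6 h with 2 lower, and 27 were higher at 2 days with 4 lower. Of all 15851 genes, 1460 were higher and 1349 lower at 6 h, and 1977 higher and 1155 lower at 2 days.

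With LEV, limma called 0 of the 74 genes at either time. Where p was not adjusted, 3 passed 0.05 as higher at 6 h with 7 lower, and 1 as higher at 2 days with 7 lower. Of all 15851 genes, 184 were higher and 542 lower at 6 h, and 208 higher and 220 lower at 2 days. *Cdkn1a*, *Junb* and *Tgif1* were lower in both SE + LEV mice than in both SE mice at both times, without a call. They had been called higher in the same SE mice, and that choice favours lower levels in other mice. Of the 74 genes, 15 were lower in both and 15 higher in both at 6 h, against 13.4% and 16.1% of all genes. At 2 days, 13 were lower in both and 8 higher in both, against 12.2% and 15.2%. *Tgfbi* was at 43.9 and 6.0 CPM in the SE + LEV 2 days mice, so that replicate 1 was within the range of the SE 2 days mice and replicate 2 below it. Against pre-SE mice, *Cdkn1a* was the 1 of the 74 genes called in SE + LEV 6 h mice (logFC 2.67) and in SE + LEV 2 days mice (logFC 1.68). With 1 of the 10 mice left out in turn, these calls held in 7 and 3 of 10 fits, and both were lost without either pre-SE mouse.

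Levels of cell type markers also differed between the groups. The summed level of 7 microglia and macrophage markers was 161 to 172 CPM before SE, 91.1 to 108 CPM in SE 6 h mice, 108 to 138 CPM in SE + LEV 6 h mice, 367 to 368 CPM in SE 2 days mice and 390.0 to 447 CPM in SE + LEV 2 days mice. It was thus higher at 2 days with and without LEV, as were *Tgfb1* and *Tgfbr2*. At 6 h the directions were opposite. The sum was below both pre-SE mice in every mouse with or without LEV, while *Tgfb1* and *Tgfbr2* were above both pre-SE mice in each. Of its 7 markers, 6 were higher in both SE 2 days mice than in both pre-SE mice, against 26.3% of all genes, and of these *Aif1* and *Cd68* were called. *P2ry12* was lower in both, with a logFC of −0.93 and no call. At 6 h *Cd68* was called higher and *P2ry12* and *Tmem119* lower. Of 3 blood leukocyte markers in the table, *Ptprc* was called at 2 days, at 14.8 and 13.8 CPM against 1.97 and 1.62 CPM before SE. Of 7 astrocyte markers, *Gfap* and *Aqp4* were called higher at 2 days, and the median logFC was −0.73. *Slc1a2*, *Slc1a3*, *Gja1* and *Aldoc* were below both pre-SE mice in both SE 2 days mice without a call, against 25.6% of all genes. The summed level, in which *Gfap* rose from a mean of 238 to 2960 CPM, was 2680 to 3210 CPM before SE and 3800 to 5140 CPM in SE 2 days mice. Of 6 endothelial markers, 5 were higher in both SE 6 h mice than in both pre-SE mice, against 18.6% of all genes, and of these *Cdh5* and *Esam* were called. The remaining 1 was lower in both, with a logFC of −0.57 and no call. The sums were 65.2 to 68.5 CPM before SE and 127 to 198 CPM in SE 6 h mice. The sum of 6 neuron markers was 8380 to 9660 CPM before SE and 4550 to 5570 CPM in SE 2 days mice, and none of them was called, while *Camk2a* and *Syt1* were lower where p was not adjusted. The 5 oligodendrocyte markers were below their pre-SE levels in both SE 2 days mice, against 25.6% of all genes, with a median logFC of −1.17 and 0 called. The part of any of these cell types in the levels of the 10 genes was not tested.

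**Figure D4:**
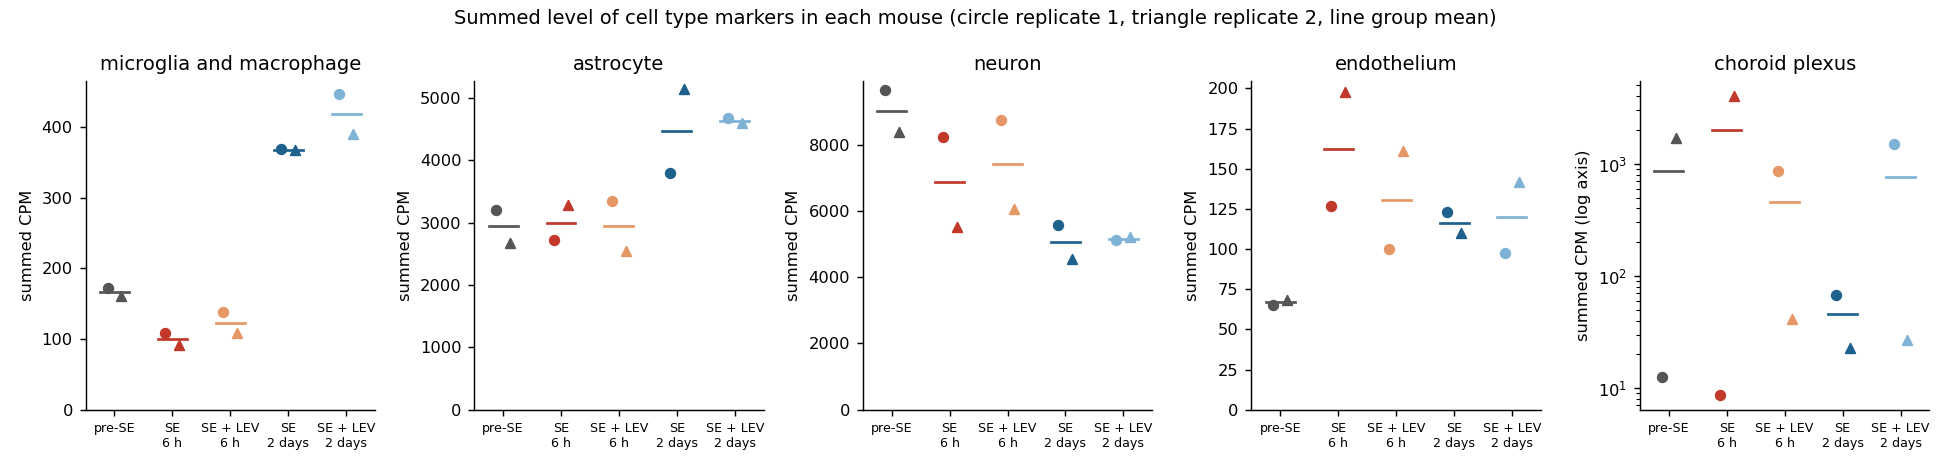
Summed CPM of the markers of 5 cell types by group, with a circle for replicate 1, a triangle for replicate 2 and a line at the group mean; the axis of the choroid plexus is logarithmic and the others start at 0. The microglia and macrophage sum is 367 CPM or more in all 4 mice of 2 days and 172 CPM or less in the other 6 mice, and the choroid plexus sum is high in 4 libraries of 4 different groups.

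The 10 genes did not share 1 pattern over the 10 libraries. Pearson's r of log2(CPM + 0.1), given as a description over libraries that share 5 groups, was 0.91 between *Tgfb1* and *Tgfbr2* and 0.90 between *Inhba* and *Smad7*, the highest of all pairs, and −0.69 between *Tgfb2* and *Tgfbr1*, the lowest. *Fst* was most like *Smad7* (0.75), and *Acvr1* most like *Inhba* (0.67). Among all genes tested, those most like *Inhba* were *Gipr* (0.978), *C030019I05Rik* (0.978) and *Mcl1* (0.977), and those most like *Smad7* were *Tiparp* (0.989), *Nfil3* (0.986) and *Ccl11* (0.984). Those most like *Tgfb1* were *P2ry6* (0.985), *Ccl12* (0.967) and *Jak3* (0.958), and those most like *Tgfbr2* were *Aspg* (0.971), *Nav1* (0.960) and *Stat6* (0.959). For the other 6 genes, the highest r was 0.896 to 0.952, with *Serping1* for *Smad3*, *Wdr45l* for *Fst*, *Mapkapk2* for *Acvr1*, *Mnt* for *Tgfb2*, *Pgf* for *Tgfb3* and *Tnfrsf14* for *Tgfbr1*.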

How the data were processed

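CAGE libraries of whole hippocampi from 10 mice were used, 2 in each of 5 groups taken from the labels. Per the labels and methods, BWA 0.7.17 and HISAT2 2.0.5 aligned the tags to the mm9 genome, BEDtools 2.12.0 and edgeR 3.22.5 were further tools, and tag clusters came from RECLU. Clusters below 0.1 CPM were removed, and the authors deposited a table of CPM, with 1 value per gene and mouse. How clusters were summed to genes, and whether strand was used, is not given in the sources used here. No column was left out (0 not used). Total tags were estimated for each library as the smallest total found at which its CPM values, rounded to within 0.005 CPM, were whole tags. They ranged by 4.91-fold, and limits stated in tags cover counting error only.

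Values were tested as log2(CPM + 0.1) with limma 3.58.1 in R 4.3.3. All 10 libraries entered 1 fit with 5 group means and a mean-variance trend, over the 15851 genes that reached 0.1 CPM in 2 or more libraries, with two-sided tests and Benjamini-Hochberg adjustment over all of them. The test was checked on simulated data. All 15900 identifiers matched the GENCODE annotation of NCBIM37. Summaries used Python 3.11.15 with pandas 2.3.3, and plots used matplotlib 3.10.9.

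The 10 genes, the lists of other pathway genes and the marker lists were chosen with earlier results of these data known. From the lists, 1 target gene and 1 marker are not reported here and enter none of their counts or sums. Besides the 10 genes, the text names other pathway genes that were called (at most 6 per direction and comparison, by size of logFC), *Inhbb*, *Acvr2a*, *Acvr1b*, *Smad2* and *Smad4*, markers, and for each of the 10 genes the 3 genes with the highest Pearson's r, of which the first only is given for 6 of them.

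Alternatives changed the pseudocount (0.01, 0.5 or 1), dropped the filter or raised it to 1 CPM, rescaled libraries by the median of ratios, added the replicate number as a block, dropped the mean-variance trend, fitted only the groups compared, or left out each mouse in turn. Added after the data were seen were a block with numbers crossed in SE + LEV 2 days mice and the exclusion of 4 libraries with high choroid plexus markers. Same-numbered mice of different groups were different animals.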

Additional observations from a re-analysis of the deposited data

Results flagged for a closer look

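For 3 pathway genes, among the 10 genes and the 74 others tested, both SE + LEV mice lay above both SE mice at one sampling time and below them at the other. Of all genes, 16.1% were above and 13.4% below at 6 h, and 15.2% were above and 12.2% below at 2 days. The share of all genes that switched sides was not counted, so the number 3 is a description only. The difference of the LEV effects between the times was tested for each in the limma fit, and none was called (adjusted p = 1.0 for each). *Tgfbr1* had a logFC with LEV of −0.17 at 6 h and 0.37 at 2 days, a difference of 0.53 (standard error 0.34, unadjusted p = 0.14). *Lrrc33*, whose product holds latent TGF-beta on the surface of microglia and macrophages, had 0.56 at 6 h and −0.23 at 2 days, a difference of −0.79 (standard error 0.50, unadjusted p = 0.15). *Col1a2* had 1.29 at 6 h and −1.53 at 2 days, a difference of −2.82 (standard error 0.80, unadjusted p = 0.0053).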

How the results depend on the processing

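The call rules were recomputed for counts of the 10 genes and of the other pathway genes, and the logFC of each of the 10 genes. In SE 6 h against pre-SE mice, of the 10 genes apart from *Inhba*, for which no test is given there, only *Smad7* was called. Its logFC ran from 1.65 to 2.18 with 1 mouse left out and was 2.07 without the 4 libraries with high choroid plexus markers, and its call was not kept in all of these fits. In SE 2 days against pre-SE mice, 3 were called, and 1 to 3 with 1 mouse left out. Between SE 2 days and SE 6 h mice 0 were called. In SE + LEV 6 h against pre-SE mice 0 were called, 0 to 1 with 1 mouse left out and 1 (*Inhba*) in a fit of only the groups compared. In SE + LEV 2 days against pre-SE mice 2 were called, 1 to 2 with 1 mouse left out, 1 (*Tgfb1*) with a pseudocount of 1 or no mean-variance trend, and 0 in a fit of only the groups compared or without the 4 libraries. Of the other pathway genes, 4 were called in SE 6 h against pre-SE mice, and 2 with a pseudocount of 1, no mean-variance trend or without the 4 libraries, and 1 to 5 with 1 mouse left out. In SE 2 days against pre-SE mice 6 were called, 12 in a fit of only the groups compared and 1 to 11 with 1 mouse left out (1 without SE 2 days replicate 2, 11 without either SE + LEV 2 days mouse). Between the times 2 were called, 1 with median-of-ratios rescaling or the replicate block, 4 in a fit of only the groups compared and 0 to 3 with 1 mouse left out. The number of all genes called higher changed with these settings as well. In SE 6 h against pre-SE mice it was 437, and 362 with a pseudocount of 1 and 375 with no mean-variance trend. In SE 2 days against pre-SE mice it was 803, and 999 in a fit of only the groups compared. Between the times it was 498, and 387 with rescaling, 413 with the block and 577 in a fit of only the groups compared. The cause of these differences was not tested.

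The replicate numbers are not known to pair the mice. Deviations of same-numbered mice from their group means had a correlation over genes of 0.34 between pre-SE and SE 6 h, 0.15 between SE 6 h and SE + LEV 6 h and −0.18 between SE 2 days and SE + LEV 2 days, and over all 10 pairs of groups it ran from −0.44 (pre-SE and SE + LEV 2 days) to 0.34. With the replicate block, *Smad7* was called at 6 h against pre-SE mice, with *Inhba* left aside. The count of the 10 genes was 3 at 2 days against pre-SE mice and 0 with LEV at either time. With the numbers crossed in SE + LEV 2 days mice, 0 of the 10 were called against SE 2 days mice and 2 against pre-SE mice. Count models on recovered tags (edgeR and DESeq2) were planned and were not run, because whole tags could not be recovered with certainty from the rounded values of 7 libraries.

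The sign of small logFC values was not stable. With median-of-ratios rescaling, the logFC with LEV at 6 h was −0.03 for *Tgfb1* and −0.04 for *Smad3* (0.03 and 0.02 as deposited), and that of *Tgfbr1* at 6 h against pre-SE mice was 0.00 (−0.13 as deposited). Without the 4 libraries, *Tgfb3* had 0.28 and 0.25 with LEV at 6 h and 2 days and 0.02 between the times, *Tgfbr1* 0.09 at 6 h against pre-SE mice, *Tgfbr2* 0.35 and *Smad3* −0.02 with LEV at 6 h. With 1 mouse left out, the logFC with LEV at 6 h ran from −0.30 to 0.36 for *Tgfb1*, −0.56 to 0.54 for *Tgfb2*, −0.73 to 0.00 for *Tgfbr2*, −0.05 to 0.83 for *Acvr1* and −0.12 to 0.17 for *Smad3*. With LEV at 2 days it ran from −0.57 to 0.25 for *Tgfb3*, −0.26 to 0.11 for *Tgfbr2*, −2.54 to 0.45 for *Fst* and −0.47 to 0.20 for *Smad3*. Against pre-SE mice it ran from −0.20 to 0.02 for *Tgfb2* and −0.03 to 0.56 for *Tgfb3* at 2 days and from −0.32 to 0.07 for *Tgfbr1* at 6 h. Between the times it ran from −1.01 to 0.02 for *Tgfb3* and −0.48 to 0.40 for *Acvr1*. Depth limits low genes most: 3 tags were worth up to 0.285 CPM in the shallowest library, and *Inhbb* rests on 21 tags or fewer in every library.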
